A study of Mus musculus with 22 samples.

Results

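Interferon-stimulated genes are the genes that a cell switches on when an interferon binds its receptor. The set described here holds 47 of them, chosen by symbol from the 46297 rows of the table; all 47 were found and all 47 passed the filter on low values (2 or more libraries with a scaled count of 10 or more), as did 14327 genes in all. Of the 47, 37 reached 10 in every library, and the sparsest, Ifi44, did so in 7. Their expression was read in mouse CD8+ T cells by RNA sequencing of 22 libraries. These P14 cells carry a transgenic T cell receptor for a viral peptide, came from C57BL/6 mice aged 6 to 12 weeks, and were of 2 genotypes, wild type (WT) and VHL-deficient. VHL directs a ubiquitin ligase to the alpha subunits of hypoxia-inducible factors, which are then degraded; the sources used here do not say how the deficiency was made.

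There were 5 settings, each in WT and VHL-deficient form, which makes 10 groups. Day 11 tumor had 3 libraries per genotype. Day 7 spleen, day 7 tumor cells taken without a further split ("unsplit" here), and day 7 tumor cells sorted as Trm (the usual short form of tissue-resident memory) or as nonTrm had 2 libraries per genotype. By the labels, each replicate pools 5 mice. The sources used here do not name the tumor, the event counted as day 0 or the sort markers that define Trm. The sorted cells lay in plate column 1, day 7 cells from spleen and unsplit tumor in column 2 and the day 11 cells in column 3, so that sorted against unsplit, and day 11 against day 7, cannot be told apart from the column.

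Type I interferons signal through the receptor chains Ifnar1 and Ifnar2 and the kinases Jak1 and Tyk2, which lead to the assembly of ISGF3, a complex that holds Stat2 and Irf9 and binds the interferon-stimulated response element (ISRE) in promoters. Interferon gamma acts mainly through another promoter element, the gamma-activated site (GAS). The products include sensors of viral nucleic acid, enzymes that block viral replication, and Usp18, which dampens the receptor. In CD8+ T cells, type I interferon is known to serve as a signal that shapes clonal expansion and differentiation.

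Promoters of these genes carried the ISRE core more often than promoters at large. RefSeq windows of 300 bases (250 before the transcription start and 50 from it, build GRCm38.p6) matched 36 of the 47 genes. The core GAAANNGAA, or TTCNNTTTC on the other strand, was in the window of 22 of the 36 (61.1%), and in 9.76% of the 27025 genes with a window. The GAS core TTCNNNGAA, which reads the same on both strands, was in 8 of the 36 (22.2%) and in 9.55% of all. The 2 motifs were counted apart and may overlap. In 20 genes an ISRE core lay wholly before a start, and in 19 of these it ended within 150 bases of it. A match is a description of the letters and no evidence of binding. The stretches below hold the cores of 11 members with calls in the comparisons that follow and of Isg15, the ubiquitin-like protein that gives the ISG15 system its name. Each is printed 5′ to 3′ on the gene's strand, with ISRE cores in capitals; overlapping cores run together. GAS cores within the stretches of Bst2 and Igtp are not marked as such, and a further ISRE core of Ifit3 lies upstream of its stretch.

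Ifit1 (chr19:34640780-34640838, plus strand): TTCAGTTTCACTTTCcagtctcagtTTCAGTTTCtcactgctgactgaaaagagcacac
Ifit3 (chr19:34583402-34583460, plus strand): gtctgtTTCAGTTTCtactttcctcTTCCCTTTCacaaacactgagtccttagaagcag
Isg15 (chr4:156200851-156200909, minus strand): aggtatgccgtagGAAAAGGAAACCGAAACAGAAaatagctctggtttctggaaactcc
Slfn5 (chr11:82951945-82952003, plus strand): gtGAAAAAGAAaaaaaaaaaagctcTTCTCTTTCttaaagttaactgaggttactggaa
Stat2 (chr10:128270252-128270310, plus strand): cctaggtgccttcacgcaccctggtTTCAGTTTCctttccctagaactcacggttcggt
Bst2 (chr8:71537563-71537621, minus strand): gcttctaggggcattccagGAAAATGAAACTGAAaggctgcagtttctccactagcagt
Rsad2 (chr12:26456538-26456596, minus strand): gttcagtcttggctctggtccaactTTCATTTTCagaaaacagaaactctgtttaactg
Ifi203 (chr1:173942494-173942552, minus strand): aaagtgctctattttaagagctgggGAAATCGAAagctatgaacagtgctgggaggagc
Ifi206 (chr1:173491325-173491383, minus strand): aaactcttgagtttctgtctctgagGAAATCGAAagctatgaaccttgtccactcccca
Ifi208 (chr1:173673582-173673640, plus strand): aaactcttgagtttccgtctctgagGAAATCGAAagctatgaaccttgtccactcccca
Gbp7 (chr3:142530259-142530317, plus strand): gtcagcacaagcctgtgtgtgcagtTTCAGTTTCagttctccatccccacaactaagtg
Igtp (chr11:58199497-58199555, plus strand): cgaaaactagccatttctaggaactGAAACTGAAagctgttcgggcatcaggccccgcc

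Ifit1, Ifit3 and Slfn5 each showed cores that lay apart, and in Ifit1, Isg15 and Bst2 overlapping cores formed a longer run. The stretches of Ifi206 and Ifi208, paralogs on chromosome 1, differed at 1 of their 59 bases, so their transcripts may also share reads, and the sources used here do not say how reads that fit both were counted. The RefSeq windows of Isg20 and Samhd1 held a GAS core, in capitals here, and no ISRE core:

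Isg20 (chr7:78913326-78913384, plus strand): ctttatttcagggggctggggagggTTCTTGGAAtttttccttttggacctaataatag
Samhd1 (chr2:157135298-157135346, minus strand): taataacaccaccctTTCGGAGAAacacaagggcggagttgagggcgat

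**Figure D1:**
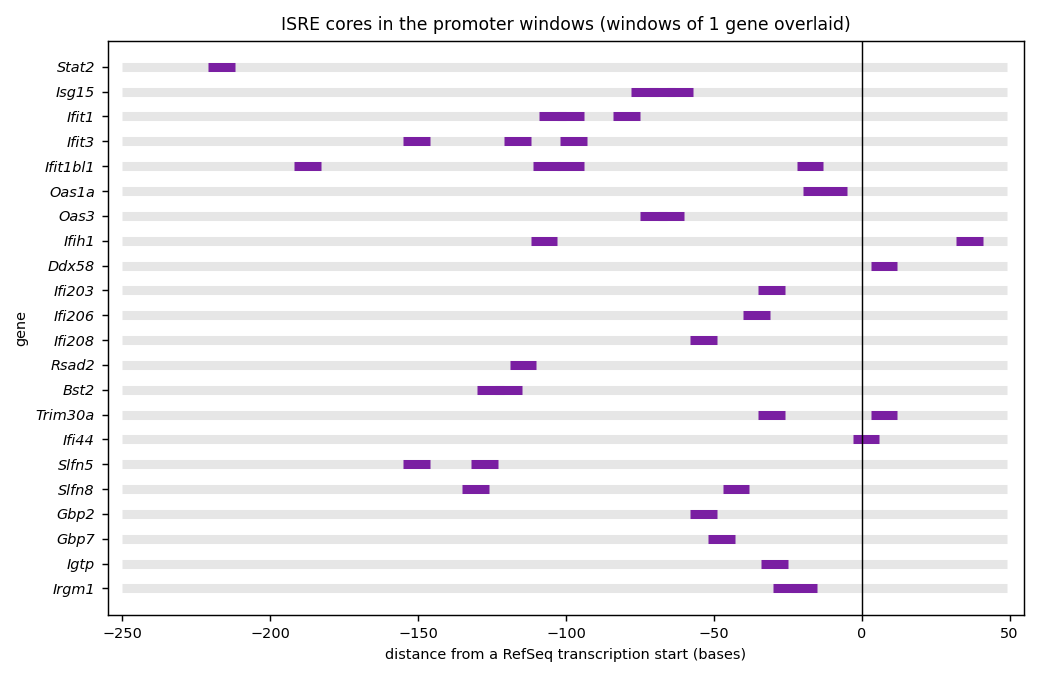
Position of each ISRE core (purple) in the RefSeq promoter windows (grey) of the 22 genes that hold one, in bases from a transcription start at 0. Most cores lie in the 150 bases before the start, while Stat2's lies beyond 200. Those of Ddx58 and Ifi44 reach past the start, and Ifih1 and Trim30a each hold a further core past it.

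Libraries held 3375558 to 10211060 reads assigned to genes, 26.9% to 45.7% of them from 1 ribosomal RNA gene. All levels below are scaled counts (reads divided by the authors' size factor), and 1 read is worth 0.684 to 2.73 of them. Vhl had 0 to 32 reads in the 11 VHL-deficient libraries and 60 to 280 in the 11 WT libraries, which matches the labels in all 22. Mitochondrial reads made up 2.89% to 5.57% in VHL-deficient and 6.07% to 12.1% in WT libraries, without overlap, and the part of this in the genotype comparisons was not tested. The second VHL-deficient nonTrm library stood apart, with 45.7% ribosomal reads and Malat1 at 34358 against at most 15027 elsewhere. The first VHL-deficient spleen library came next in ribosomal reads, at 42.3%, and had the fewest reads of all, 3375558. The 7 CD8 T cell markers were detected in every group. Of the 6 plasmacytoid dendritic cell markers, Siglech (at most 3.28) and Klk1 (0 throughout) were at or near 0. The summed list ran from 72.3 to 4086 and varied by group, with Irf8 among its members. This sum therefore cannot be read as an amount of these cells. The second WT day 11 library carried neutrophil markers (sum 942.5, against at most 16.4 in the other libraries). All p-values below are two-sided and adjusted by Benjamini-Hochberg over the 14327 tested genes, from 1 limma fit over all libraries; "called" means an adjusted p below 0.05. In bulk samples, fewer cells expressing a gene and less RNA of it per cell cannot be told apart.

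The highest levels were mostly in WT nonTrm cells. The mean was highest in WT nonTrm cells for 33 of the 47 genes (70.2%, against 5.29% of all tested genes) and in VHL-deficient nonTrm cells for 10 (21.3%, against 15.2%). The 3 genes highest in WT spleen were Ifi203, Slfn8 and H2-T24, and Gbp7 was highest in VHL-deficient Trm cells. The lowest mean was in VHL-deficient day 11 tumor for 21 genes (44.7%, against 6.6% of all) and in VHL-deficient spleen for 14 (29.8%, against 14.4%). In 33 of the 47, both WT nonTrm libraries lay above all 9 libraries of the other WT groups (3.20% of all tested genes did so). In VHL-deficient cells this held for 17 (1.99% of all). The median log2 level of the 47 was 8.32 in the second VHL-deficient nonTrm library, below both VHL-deficient Trm libraries (8.73 and 8.36). Sorted cells lay in a plate column of their own, which cannot be told apart from sorting.

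**Figure D2:**
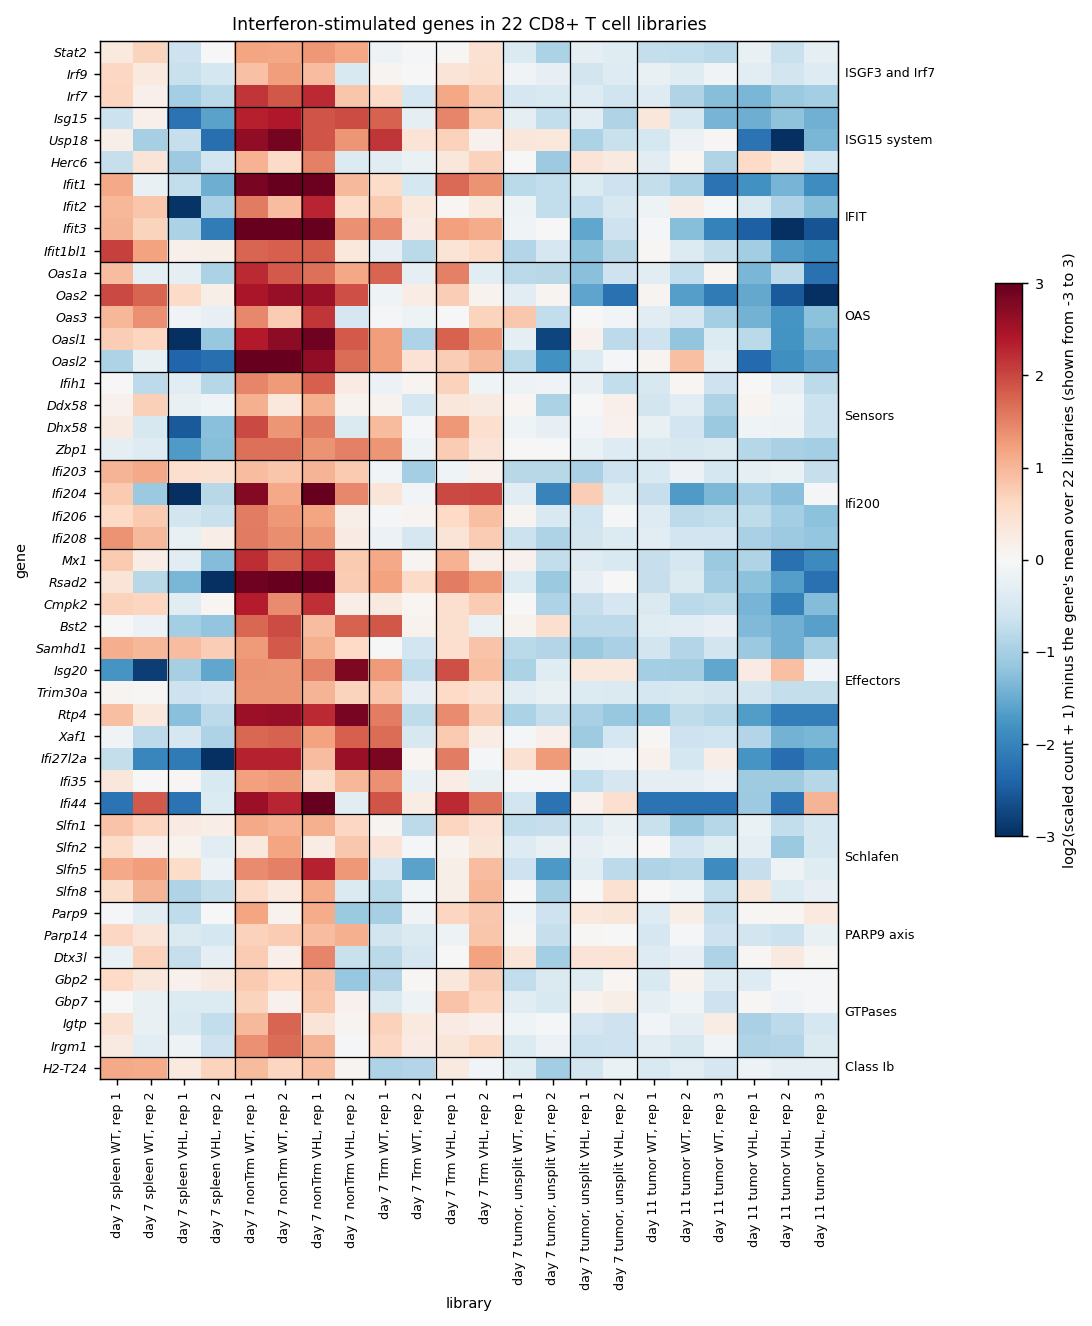
Level of the 47 genes (rows, by role) in the 22 libraries (columns, by group) as log2(scaled count + 1) minus the gene's mean over the libraries; red is above and blue below that mean, and colours end at -3 and 3. The WT nonTrm columns and the first VHL-deficient nonTrm column are red in most rows, and the VHL-deficient spleen and day 11 columns are mostly blue.

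One gene of each role, that with the highest mean scaled count in it, shows the pattern over all groups. Irf9, the DNA-binding part of ISGF3, lay at 962 and 1247 in WT and 996 and 382 in VHL-deficient nonTrm cells, 554 and 532 in WT against 693 and 735 in VHL-deficient Trm cells, and 814 and 647 against 329 and 368 in spleen. In unsplit tumor it lay at 488 and 442 in WT and 358 and 401 in VHL-deficient cells, and on day 11 at 452, 409 and 490.3 against 420.3, 358 and 403. The first VHL-deficient nonTrm library was thus as high as the WT ones and the second among the lowest of all. Herc6, the mouse ligase that attaches Isg15 to proteins, followed with 367 and 264 against 511 and 134 in nonTrm, 139 and 155 against 225 and 286 in Trm, and 109.9 and 234 against 82.7 and 119.8 in spleen (here and below, values before "against" belong to the group named first, WT where none is named). Its unsplit tumor values were 176 and 82.3 against 234 and 213, and its day 11 values 140.4, 186 and 94.3 against 269, 221 and 122. For Herc6 the groups overlapped broadly, and replicates of a group differed by up to several times.

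Ifit1, which binds viral RNA that lacks a methylated cap, lay at 1503 and 1662 against 1618 and 406 in nonTrm, 304 and 145 against 683 and 533 in Trm, and 461 and 179 against 125 and 74.7 in spleen. Unsplit tumor gave 118 and 125 against 156 and 135, and day 11 126, 108 and 44.1 against 58.1, 78.4 and 56.4. For Ifit1, the 2 WT and the first VHL-deficient nonTrm libraries lay above every other library. Oas3, an RNA-activated synthetase of the messenger that switches on RNase L, lay at 697 and 439 against 1136 and 180.1 in nonTrm, 249 and 232 against 259 and 409 in Trm, and 511 and 662 against 237 and 215 in spleen. Unsplit tumor gave 450.4 and 153 against 259.7 and 243, and day 11 202, 182 and 125 against 95.2, 74.6 and 109. Oas3 separated the VHL-deficient from the WT spleen libraries, with the former lower, and its replicates in unsplit WT tumor lay far apart. Ddx58, the RNA sensor RIG-I, varied less: nonTrm gave 817 and 484 against 821 and 420.1, Trm 424 and 273 against 497 and 469.7, and spleen 429 and 640.1 against 333 and 356. Unsplit tumor gave 410.1 and 202 against 386 and 432 for Ddx58, and day 11 268, 316 and 206 against 417, 360.5 and 250.1.

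Ifi203, a nuclear DNA-binding protein of the Ifi200 family, was as high in WT spleen as in WT nonTrm cells. It lay at 634 and 594 against 672 and 570.2 in nonTrm, 315 and 164 against 305 and 361 in Trm, 675 and 728 against 474 and 457 in spleen, 188 and 186 against 168 and 217 in unsplit tumor, and 241, 293 and 232 against 278, 288 and 206 on day 11. Samhd1, an enzyme that breaks down deoxynucleotides, likewise separated spleen from unsplit and day 11 tumor. It lay at 5589.5 and 8354 against 4855 and 3508 in nonTrm, 2316 and 1551 against 3295 and 4197 in Trm, 4959.5 and 4616 against 4425 and 3852 in spleen, 1319 and 1256 against 1081 and 1183 in unsplit tumor, and 1585, 1271 and 1576 against 1076, 859 and 1170.4 on day 11. Slfn2, a Schlafen protein needed for T cell quiescence, had its highest value in the second WT nonTrm library. It lay at 1703 and 3085 against 1596 and 2409 in nonTrm, 1789 and 1325 against 1474 and 1759 in Trm, 2015 and 1523 against 1475 and 1090.3 in spleen, 1051 and 1174 against 1143 and 1226 in unsplit tumor, and 1386, 911 and 1061 against 1132, 630.2 and 955 on day 11.

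Parp9, which works with the ubiquitin ligase Dtx3l, differed widely between replicates in nonTrm and WT Trm cells. Its levels were 1296 and 614 against 1230.1 and 265 in nonTrm, 285 and 527 against 893 and 1002 in Trm, 545 and 454 against 337 and 565 in spleen, 542 and 372 against 712 and 739.8 in unsplit tumor, and 439, 650.0 and 355 against 589, 599 and 698 on day 11. Igtp, an immunity-related GTPase that is also induced by interferon gamma, peaked in WT nonTrm cells. Its levels were 2028 and 3494 against 1365 and 1105 in nonTrm, 1686 and 1281 against 1238 and 1155 in Trm, 1428 and 891 against 753 and 622 in spleen, 955 and 1018 against 736 and 676 in unsplit tumor, and 987, 865 and 1209.7 against 532, 604 and 723 on day 11. H2-T24, a nonclassical class I gene, was highest in WT spleen. Its levels were 220.5 and 176 against 214 and 120.0 in nonTrm, 59.5 and 61.4 against 137 and 107 in Trm, 250.5 and 244 against 139 and 181 in spleen, 88.3 and 54.1 against 77.1 and 97.7 in unsplit tumor, and 82.1, 90.4 and 79.6 against 101, 92.2 and 92.3 on day 11.

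**Figure D3:**
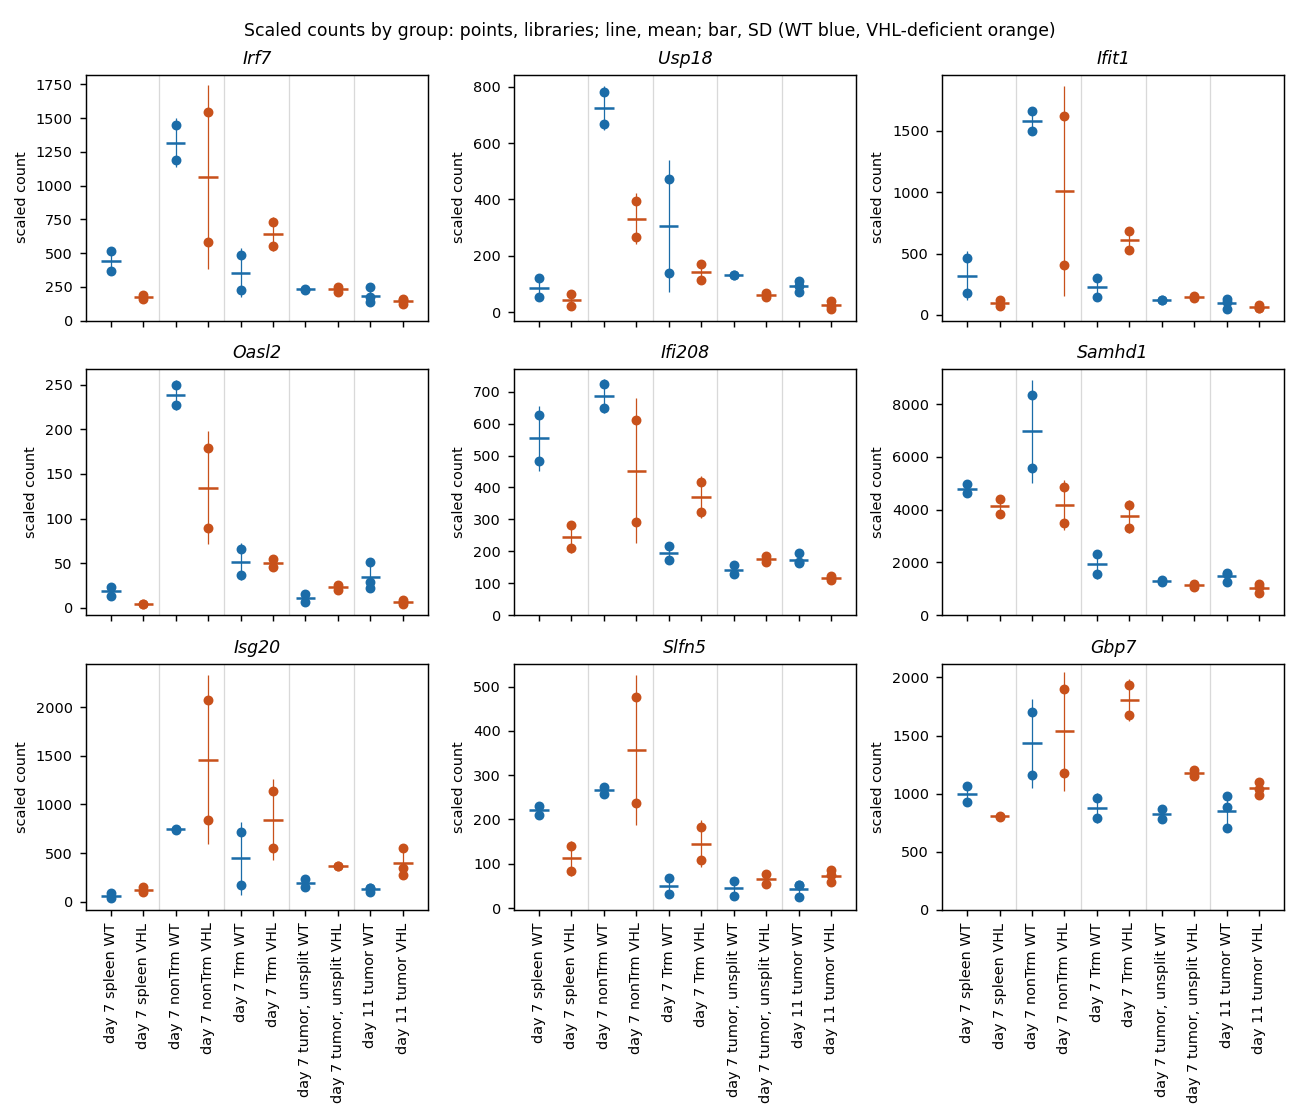
Scaled counts (vertical axes, each from 0) of 9 of the genes in the 10 groups; points are libraries, horizontal lines group means and vertical bars SD, with WT in blue and VHL-deficient in orange. WT nonTrm cells are the highest group for Usp18, Ifit1 and Oasl2, and VHL-deficient libraries lie above WT in Trm cells for Gbp7, Samhd1 and Slfn5.

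In WT, Trm cells had lower levels than nonTrm cells: 10 of the 47 genes were called lower and 0 higher (0.0977% and 0.202% of all tested genes were called lower and higher). Those 10 are among only 14 genes called lower in the whole table. The 47 were chosen with earlier results of these data known, so this share may not be independent of the choice. Of 52 other interferon-stimulated genes tested, 0 were called here, with a median log2 fold change of -0.68. All 47 fold changes were below 0 (47.0% of all tested genes were), with a median log2 fold change of -1.31 against 0.04 over all genes. In 43 of the 47, both Trm libraries lay below both nonTrm libraries (18.2% of all tested genes did). By role, the median ran from -0.98 for the 4 GTPases to -2.55 for the 4 IFIT genes.

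Among the regulators, Irf7, the factor that amplifies interferon production, lay at 1447 and 1190.0 in nonTrm and 484 and 226 in Trm cells (log2 fold change -1.98, SE 0.39, adjusted p = 0.0315). The IFIT genes Ifit1 (log2 fold change -2.91, SE 0.55, adjusted p = 0.0303) and Ifit1bl1 both fell. Ifit1bl1, an Ifit1-related gene, lay at 505 and 519.9 in nonTrm and 127 and 85.5 in Trm cells (log2 fold change -2.29, SE 0.42, adjusted p = 0.0276). In each of these 3 genes the 2 groups were separate, with both Trm libraries low. In the Ifi200 family, Ifi208 lay at 723 and 647 in nonTrm and 218 and 172 in Trm cells (log2 fold change -1.82, SE 0.30, adjusted p = 0.0154). Ifi203, at the levels given above, had a log2 fold change of -1.43 (SE 0.28, adjusted p = 0.0315). Its first Trm library was well above the second but below both nonTrm libraries.

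Samhd1 had the smallest adjusted p of the 47 (log2 fold change -1.85, SE 0.27, adjusted p = 0.00894). Rtp4, a chaperone that restricts flaviviruses, lay at 1132 and 1171 in nonTrm and 549 and 111 in Trm cells (log2 fold change -2.21, SE 0.47, adjusted p = 0.0479). As a ratio, its 2 Trm libraries differed more from each other than the first did from nonTrm. Of the Schlafen genes, 2 fell. Slfn1 lay at 1726 and 1620.4 in nonTrm and 826 and 455 in Trm cells (log2 fold change -1.45, SE 0.27, adjusted p = 0.0303), and Slfn5 at 258 and 274 against 67.6 and 30.7 (log2 fold change -2.52, SE 0.47, adjusted p = 0.0303). H2-T24 fell as well (log2 fold change -1.69, SE 0.32, adjusted p = 0.0303), with Trm replicates close together.

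In the roles without a call, the genes given above had log2 fold changes of -1.08 (Herc6), -1.20 (Oas3), -0.88 (Ddx58), -1.20 (Parp9) and -0.86 (Igtp), with adjusted p between 0.205 and 0.445. The WT Trm replicates disagreed for several effectors, of which 2 are given here: Ifi27l2a lay at 2754 and 2758 in nonTrm and 3931 and 576 in Trm cells, and Bst2 at 1094 and 1271 against 1203 and 355. The first Trm library was above the lower nonTrm library for Ifi27l2a and Bst2, and the second well below it. Ifi35 (896 and 917 in nonTrm and 984 and 324 in Trm cells), Xaf1 (669.7 and 699 and 649 and 146) and Isg20 (749 and 738 and 713 and 177) likewise had a second Trm library far below the first. These 5 were chosen after their values were seen. At an unadjusted p under 0.05, 37 of the 47 were lower and 0 higher (11.4% of all tested genes passed, either way). Summed macrophage markers were 65.8 to 106.8 in Trm and 73.9 to 85.8 in nonTrm libraries. Those of dendritic cells were 332.4 to 378.4 and 316.8 to 327.9, and those of plasmacytoid dendritic cells were 2574 to 3834 and 951.5 to 1937, without overlap (Irf8 at 3811 and 2561 in Trm and 1899 and 930.0 in nonTrm). Irf8 thus made up nearly all of the plasmacytoid sums in both sorts. No gene of the 11 marker lists was called between these sorts, and the part of other cell types in the result was not tested. The count of 10 became 0 without the second Trm library, 0 without the second and 5 without the first nonTrm library, 0 in a fit of these 4 libraries alone, 20 with voom, and 22 without either VHL-deficient nonTrm library, which enters only through the shared spread. The median was -1.84 without the first and -1.15 without the second Trm library.

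In VHL-deficient cells none of the 47 was called between Trm and nonTrm (0.00698% of all tested genes were called higher and 0% lower), by limma or by voom; 12 were lower and 0 higher at an unadjusted p under 0.05 (8.77% of all tested genes passed, either way). The median log2 fold change was -0.57 (0.02 over all genes), with 38 of 47 below 0. The smallest adjusted p was that of Stat2, a part of ISGF3, at 448 and 412 in nonTrm and 188 and 252 in Trm cells (log2 fold change -0.97, SE 0.28, adjusted p = 0.469). Log2 fold changes of the genes given above were 0.21 (Irf9), -0.05 (Herc6), -0.43 (Ifit1), -0.48 (Oas3), -0.28 (Ddx58), -0.90 (Ifi203), -0.15 (Samhd1), -0.28 (Slfn2), 0.73 (Parp9), -0.04 (Igtp) and -0.40 (H2-T24). The 2 VHL-deficient nonTrm libraries disagreed in composition: the first was the higher for Ifit1, Irf7 (1543 and 584) and Oasl1 (286 and 136), and the second for Isg20 (844 and 2076), Rtp4 (892 and 1367) and Ifi27l2a (1052 and 3339). Without the first, the median was 0.01 and 5 genes were called, 3 higher and 2 lower; without the second, which stood apart in quality, the median was -0.81 and the count stayed 0.

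Whether the Trm to nonTrm difference itself differed between genotypes was tested as an interaction. No gene of the whole table was called (0% either way), and 13 of the 47 were higher and 0 lower at an unadjusted p under 0.05 (8.07% of all tested genes passed, either way). Voom called 0 of the 47. The median difference of log2 fold changes was 0.96 (0.01 over all genes), and 43 of 47 were above 0, which means less negative in VHL-deficient cells. Samhd1 had the smallest p of the 47 (difference 1.70, SE 0.38, adjusted p = 0.389), and Ifit1 the widest difference (2.48, SE 0.78, adjusted p = 0.515). Without the first VHL-deficient nonTrm library, 19 of the 47 were called and the median was 1.47; without the second, 0 were called and it was 0.53.

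Unsplit tumor samples were set beside the sorts by library, with no test. In VHL-deficient cells, both unsplit libraries lay below all 4 sorted libraries in 35 of the 47 genes (11.9% of all tested genes), and above them in 0 (11.8% of all). In WT cells the counts were 19 below (6.92% of all) and 0 above (5.29% of all), so most members overlapped a sort; Oas3, Parp9 and H2-T24, at the levels given above, are examples. Rsad2, the antiviral enzyme viperin, lay at 98.7 and 119.8 in unsplit VHL-deficient cells, 345 and 288 in Trm and 931 and 202 in nonTrm cells. In WT it lay at 88.3 and 54.1 in unsplit, 274 and 175 in Trm and 894 and 959.8 in nonTrm cells. For Rsad2 no unsplit library reached the level of any sorted library of its genotype. Sorting and plate column cannot be told apart here.

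VHL-deficient spleen cells had lower levels than WT spleen cells: 5 of the 47 genes were called lower and 0 higher (0.733% and 2.44% of all tested genes, 3.18% either way). The median log2 fold change was -1.03 (0.04 over all genes), 46 of 47 were below 0, and in 36 both VHL-deficient libraries lay below both WT libraries (19.8% of all tested genes). The exception above 0 was Isg20, at 86.3 and 40.9 in WT and 148 and 100.1 in VHL-deficient spleen (log2 fold change 1.02, adjusted p = 0.443). By role, the median was -1.96 for the IFIT, -1.49 for the OAS, -1.25 for the Ifi200 and -0.33 for the GTPase genes.

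Ifit2, an RNA-binding IFIT protein, lay at 150.3 and 135 in WT and 8.94 and 37.7 in VHL-deficient spleen (log2 fold change -2.87, SE 0.54, adjusted p = 0.00279). Ifit3 lay at 150.3 and 118 against 38.0 and 16.4 (log2 fold change -2.37, SE 0.63, adjusted p = 0.0411). Oasl1, an OAS-like protein that limits translation of Irf7, lay at 62.6 and 58.7 against 2.23 and 16.4 (log2 fold change -3.04, SE 0.79, adjusted p = 0.037). In all 3 the WT libraries were high and the VHL-deficient ones low, though the 2 VHL-deficient libraries of Ifit2 and Oasl1 differed several-fold at few reads. The Ifi200 genes Ifi206 (427 and 488 in WT and 190.0 and 176 in VHL-deficient spleen, log2 fold change -1.32, SE 0.31, adjusted p = 0.0198) and Ifi208 (626 and 482 against 210.1 and 281, log2 fold change -1.17, SE 0.30, adjusted p = 0.0341) fell without overlap of the genotypes. Replicates lay closer together for Ifi206 than for Ifi208.

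In roles without a call, log2 fold changes were -1.06 (Irf9), -0.68 (Herc6), -0.60 (Ddx58), -0.21 (Samhd1), -0.47 (Slfn2), -0.19 (Parp9), -0.72 (Igtp) and -0.64 (H2-T24), with adjusted p from 0.067 to 0.932. At an unadjusted p under 0.05, 27 of the 47 were lower and 0 higher (13.3% of all tested genes passed, either way). Ighm, the heavy chain of IgM, differed between the same libraries (1042 and 1069.7 in WT, 308 and 297 in VHL-deficient spleen). It was the only gene called of 2 tested B cell markers, whose median log2 fold change was -0.34. The part of Ighm in the result was not tested. The count of 5 became 1 without the first VHL-deficient, the first WT or the second WT spleen library, 3 without the second VHL-deficient one or the third VHL-deficient day 11 one, 8 without the second WT Trm library and 14 without either VHL-deficient nonTrm library. It was 3 with voom and 0 in a fit of the 4 spleen libraries alone, while the median stayed between -1.12 and -0.94 whichever library was left out.

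In day 11 tumor, 6 of the 47 genes were called lower and 1 higher in VHL-deficient cells (2.39% and 4.47% of all tested genes, 6.87% either way). The median log2 fold change was -0.40 (0.07 over all genes), or -0.42 over the 46 genes other than Ifi44, which had 0 reads in all 3 WT libraries. In 18 of the 47, all VHL-deficient libraries lay below all WT libraries (17.9% of all tested genes did) and in 6 above (20.6%). At an unadjusted p under 0.05, 16 were lower and 2 higher, where 22.1% of all tested genes passed, either way.

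Usp18, which strips Isg15 from proteins and blocks the type I receptor, lay at 72.9, 93.5 and 109 in WT and 22.1, 10.8 and 40.4 in VHL-deficient cells (log2 fold change -2.03, SE 0.48, adjusted p = 0.0115). Oasl2, an OAS-like protein, lay at 29.2, 51.5 and 22.5 against 4.64, 6.92 and 8.39 (log2 fold change -2.16, SE 0.42, adjusted p = 0.00312), the smallest adjusted p of the 47. In both genes the libraries were separate by genotype. Of the IFIT genes, 2 fell: Ifit3 lay at 71.1, 30.1 and 17.3 in WT and 12.8, 4.61 and 11.4 in VHL-deficient cells (log2 fold change -1.81, SE 0.51, adjusted p = 0.0371), and Ifit1bl1 at 153, 113 and 90.8 against 72.0, 45.3 and 41.2 (log2 fold change -1.16, SE 0.34, adjusted p = 0.0425). For both, the lowest WT library was only slightly above the highest VHL-deficient one.

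Bst2, the protein tetherin that holds budding virus at the cell surface, lay at 255, 262 and 278 in WT and 131, 121 and 106 in VHL-deficient cells (log2 fold change -1.15, SE 0.32, adjusted p = 0.0346), with tight replicates in both genotypes. Ifi27l2a, a mitochondrial interferon-induced protein, lay at 611, 386 and 639.9 against 163, 114 and 146 (log2 fold change -1.93, SE 0.55, adjusted p = 0.0379). Isg20, an exonuclease that degrades RNA, went the other way, at 146, 143 and 99.4 in WT and 348, 553 and 279.8 in VHL-deficient cells (log2 fold change 1.56, SE 0.44, adjusted p = 0.0355). All 3 VHL-deficient libraries were above all 3 WT libraries for Isg20, and the reverse held for Bst2 and Ifi27l2a.

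The other roles had log2 fold changes on day 11 of -0.19 (Irf9), 0.37 (Ddx58), 0.00 (Ifi203), -0.32 (Slfn2), 0.43 (Parp9), -0.72 (Igtp) and 0.18 (H2-T24), with adjusted p from 0.0682 to 0.994. Markers of other cells moved with genotype in both directions. Summed NK cell markers were 76.1 to 241 in WT and 15.2 to 45.4 in VHL-deficient libraries, with Ncr1 at 1.82, 30.9 and 4.32 against 0, 0 and 0. Summed macrophage markers were 74.8 to 115.7 and 46.9 to 51.9, with 0 genes called, and B cell markers 310.7 to 591.5 and 76.1 to 135. Melanoma markers went the other way, at 25.5 to 41.5 in WT and 45.75 to 68.5 in VHL-deficient libraries, with 0 genes called. Of 6 tested dendritic cell genes, 1 was called higher and 2 lower, and of 3 plasmacytoid ones 1 higher and 1 lower. The part of these cells in the result was not tested. The count of 7 depended on each of its own libraries, falling to 1 to 3 without any one of the 6. The count was 2 without the second WT library, 2 without the filter on low values and 17 in a fit of the 6 libraries alone.

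In VHL-deficient Trm cells, 4 of the 47 (8.51%) were called higher and 0 lower than in WT Trm cells, where 5.07% of all tested genes were called higher and 5.03% lower (10.1% either way), so the share is not far from the background. The median log2 fold change was 0.50 (0.09 over all genes) and 38 of 47 were above 0; in 24 both VHL-deficient libraries lay above both WT libraries (28.5% of all tested genes). At an unadjusted p under 0.05, 16 were higher and 1 lower, where 25.9% of all tested genes passed, either way.

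Gbp7, a guanylate-binding protein, lay at 788 and 966 in WT and 1932 and 1679 in VHL-deficient Trm cells (log2 fold change 1.05, SE 0.26, adjusted p = 0.013). Samhd1, at the levels given above, rose as well (log2 fold change 0.97, SE 0.27, adjusted p = 0.0258). The Schlafen genes Slfn5 (67.6 and 30.7 in WT and 108 and 183 in VHL-deficient cells, log2 fold change 1.60, SE 0.47, adjusted p = 0.0361) and Slfn1 (826 and 455 against 1225 and 1057, log2 fold change 0.89, SE 0.27, adjusted p = 0.0418) were the others. The genotypes did not overlap in any of the 4. Ifi27l2a and Usp18 lay on the other side in the first WT library, with Usp18 at 472 and 139.5 in WT and 169.6 and 116 in VHL-deficient cells (log2 fold change -0.87, adjusted p = 0.361).

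In the roles without a call, log2 fold changes in Trm cells were 0.39 (Irf9), 0.78 (Herc6), 1.52 (Ifit1), 0.44 (Oas3), 0.50 (Ddx58), 0.54 (Ifi203), 1.28 (Parp9) and 0.99 (H2-T24), with adjusted p from 0.0525 to 0.662. Markers of other cells differed between the same libraries in both directions. Summed B cell markers were 404.0 to 496.8 in WT and 192.6 to 196.4 in VHL-deficient Trm cells, plasmacytoid dendritic cell markers 2574 to 3834 and 707.3 to 1362, and dendritic cell markers 332.4 to 378.4 and 482.6 to 780.3. Of the dendritic cell genes, H2-Eb1 was called lower (77.0 and 26.3 against 3.14 and 4.66) and Xcr1 higher (87.8 and 65.0 against 360.1 and 505). Of the plasmacytoid list, Irf8 was called lower and Tcf4 higher. In WT Trm cells Irf8 made up nearly all of the plasmacytoid sum, which cannot be read as an amount of these cells. The part of all these markers in the result was not tested. The count of 4 became 0 without the second VHL-deficient Trm library, 1 higher and 3 lower without the second WT Trm library, 12 higher without either VHL-deficient nonTrm library, 7 with voom, 1 without the filter on low values and 0 in a fit of the 4 libraries alone. The median was 0.25 without the second and 0.82 without the first WT Trm library.

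In nonTrm cells, 1 of the 47 genes was called lower and 0 higher in VHL-deficient cells (0.67% and 1.65% of all tested genes, 2.32% either way). It was Igtp (log2 fold change -1.12, SE 0.28, adjusted p = 0.0402), at 2028 and 3494 in WT and 1365 and 1105 in VHL-deficient cells, without overlap. The median was -0.47 (0.02 over all genes), and 39 of 47 were below 0. At an unadjusted p under 0.05, 7 were lower and 0 higher, a share near the background (15.3% of all tested genes passed, either way). Log2 fold changes in the other roles were -0.83 (Irf9), -0.25 (Herc6), -0.96 (Ifit1), -0.29 (Oas3), -0.10 (Ddx58), 0.01 (Ifi203), -0.73 (Samhd1), -0.23 (Slfn2), -0.64 (Parp9) and -0.30 (H2-T24). Summed B cell markers were 468.8 to 882.3 in WT and 127.2 to 297.4 in VHL-deficient nonTrm libraries, with Ighm called lower; their part was not tested. The result rested on 1 library: without the first VHL-deficient nonTrm library 16 were called lower and the median was -0.87, and without the second, which stood apart, 0 were called and the median was 0.06. The call of Igtp was lost in 10 of the 22 fits that left out 1 library, among them 8 that left out a library of another group.

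In unsplit day 7 tumor, none of the 47 was called between genotypes by limma or voom (1.68% of all tested genes were called higher and 0.223% lower, 1.91% either way), with 2 lower and 0 higher at an unadjusted p under 0.05, a share below the background (13.6% of all tested genes passed, either way). The median was -0.02 (0.03 over all genes), with 23 above and 24 below 0. The 2 smallest p-values were those of Oas2, at 17.4 and 23.5 in WT and 6.76 and 3.94 in VHL-deficient cells (log2 fold change -1.78, SE 0.64, adjusted p = 0.195), and Bst2, at 356 and 461 against 189 and 189 (log2 fold change -1.09, SE 0.39, adjusted p = 0.198). For both, the WT libraries were the higher ones. The genes given for each role had log2 fold changes of -0.29 (Irf9), 0.89 (Herc6), 0.25 (Ifit1), -0.06 (Oas3), 0.50 (Ddx58), 0.03 (Ifi203), -0.19 (Samhd1), 0.09 (Slfn2), 0.69 (Parp9), -0.48 (Igtp) and 0.32 (H2-T24).

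**Figure D4:**
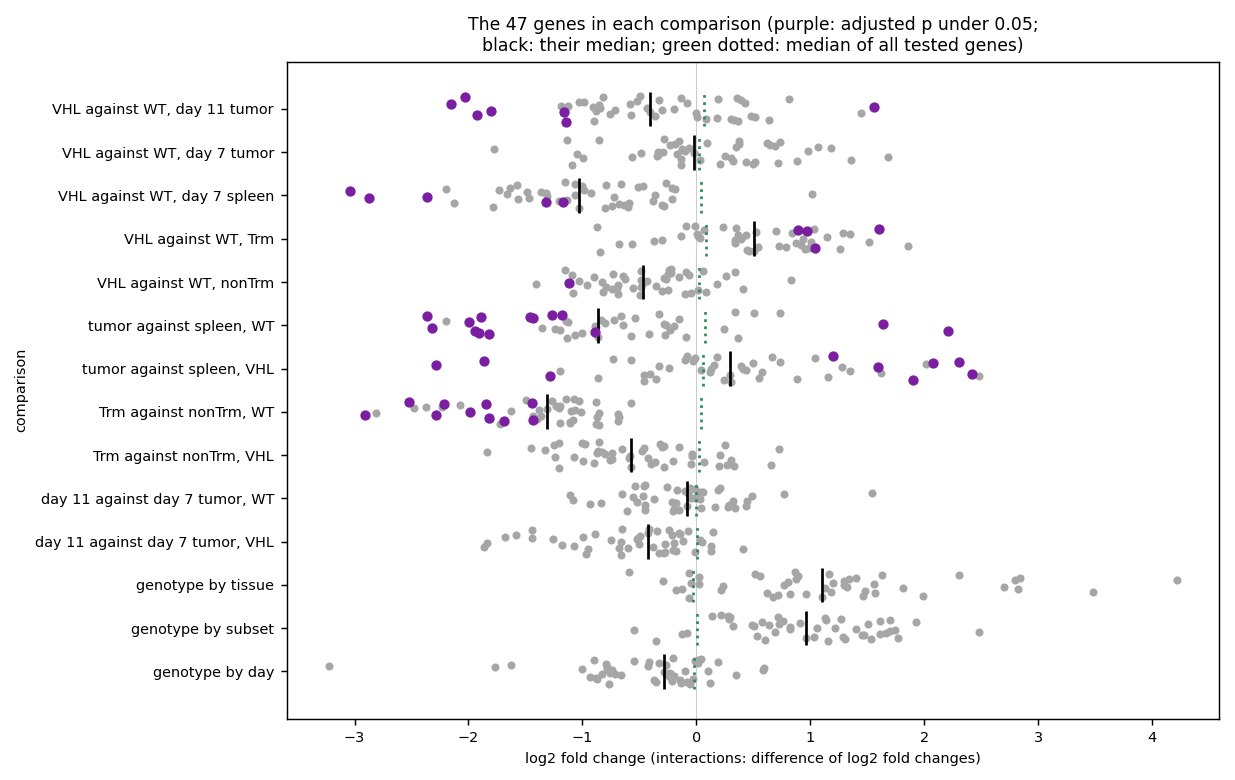
Log2 fold change (horizontal axis) of each of the 47 genes in the 14 comparisons (rows); purple points passed an adjusted p of 0.05, black bars mark the median of the 47 and green dotted bars that of all 14327 tested genes. The black bar lies at -1.31 for Trm against nonTrm in WT and -1.03 for VHL against WT in spleen, and at 0.50 for VHL against WT in Trm cells.

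Between unsplit tumor and spleen, the median of the 47 lay below 0 in WT and above 0 in VHL-deficient cells. In WT, 12 of the 47 were called lower and 2 higher in tumor (8.31% and 13.2% of all tested genes, 21.5% either way), with a median of -0.86 (0.08 over all genes). In VHL-deficient cells, 3 were called lower and 6 higher (5.47% and 9.98% of all, 15.4% either way), with a median of 0.29 (0.06 over all genes). The spleen libraries that enter here are those of the spleen comparison between genotypes, so the results are not independent of it. Summed markers of plasmacytoid dendritic cells, Irf8 and Tcf4 among them, were 72.3 to 121.4 in spleen and 1709 to 2895 in unsplit tumor libraries. Siglech and Klk1 of that list were at or near 0 in all libraries. Summed B cell markers were 570.2 to 1222 in spleen and 194.8 to 1018 in unsplit tumor. The part of these markers in the result was not tested.

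In WT, Samhd1 (log2 fold change -1.89, SE 0.27, adjusted p = 4.13e-05), Ifi203 (log2 fold change -1.90, SE 0.28, adjusted p = 6.39e-05) and H2-T24 (log2 fold change -1.82, SE 0.32, adjusted p = 0.000377) fell in tumor from the spleen levels given above. Ifi208 lay at 626 and 482 in spleen and 157 and 129 in tumor (log2 fold change -1.94, SE 0.30, adjusted p = 0.000112), and Ifit1bl1 at 628 and 347 against 80.7 and 106 (log2 fold change -2.32, SE 0.42, adjusted p = 0.00046). Spleen and tumor libraries were separate in each of these 5 genes. The Schlafen genes Slfn1 (1408 and 1223 in spleen and 465 and 487 in tumor, log2 fold change -1.46, SE 0.27, adjusted p = 0.000668) and Slfn5 (210.1 and 230.5 against 62.2 and 28.2, log2 fold change -2.36, SE 0.47, adjusted p = 0.00136) fell likewise. So did Stat2 (224 and 291 against 134 and 94.1, log2 fold change -1.18, SE 0.28, adjusted p = 0.0051), Oas2 (90.5 and 77.5 against 17.4 and 23.5, log2 fold change -1.99, SE 0.64, adjusted p = 0.03) and Rtp4 (353 and 236 against 98.2 and 115, log2 fold change -1.43, SE 0.47, adjusted p = 0.0357). Ifi206 and Slfn8 completed the 12.

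The 2 genes higher in WT tumor were Ifi27l2a, at 337 and 142 in spleen and 759 and 1359 in tumor (log2 fold change 2.21, SE 0.67, adjusted p = 0.0238), and Isg20, at 86.3 and 40.9 against 153 and 230.5 (log2 fold change 1.64, SE 0.54, adjusted p = 0.0337). Both had tumor libraries above both spleen libraries. Without a call were Irf9 (-0.64), Herc6 (-0.41), Ddx58 (-0.86), Parp9 (-0.15) and Igtp (-0.19; log2 fold changes). The count of 14 was 7 without the second WT spleen or the second WT tumor library, 23 without either VHL-deficient nonTrm library, 9 without the filter and 7 in a fit of the 4 libraries alone; the median was -0.39 without the second tumor library.

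In VHL-deficient cells, Samhd1 (log2 fold change -1.87, SE 0.27, adjusted p = 6.78e-05), Ifi203 (log2 fold change -1.28, SE 0.28, adjusted p = 0.00343) and Oas2 (33.5 and 25.4 in spleen and 6.76 and 3.94 in tumor, log2 fold change -2.29, SE 0.64, adjusted p = 0.0179) were lower in tumor. Another 6 genes were higher. Oasl2 lay at 4.47 and 4.92 in spleen and 20.3 and 26.0 in tumor (log2 fold change 2.07, SE 0.52, adjusted p = 0.00916), Rsad2 at 44.7 and 9.84 against 98.7 and 119.8 (log2 fold change 2.30, SE 0.62, adjusted p = 0.0144), and Zbp1, a sensor of Z-form nucleic acid, at 98.3 and 133 against 283 and 247 (log2 fold change 1.20, SE 0.32, adjusted p = 0.0148). Dhx58, the RIG-I-like protein LGP2, lay at 31.3 and 76.3 against 173 and 199 (log2 fold change 1.90, SE 0.53, adjusted p = 0.0177). In all of these the tumor libraries were above the spleen libraries, which were at few reads for Oasl2 and Rsad2 and, in 1 library, for Dhx58. Ifi27l2a (127 and 69.7 against 499 and 520.0, log2 fold change 2.42, SE 0.67, adjusted p = 0.0177) and Isg20 (148 and 100.1 against 369 and 371, log2 fold change 1.60, SE 0.54, adjusted p = 0.0479) were higher in tumor, as in WT.

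Without a call were Irf9 (0.13), Herc6 (1.16), Ifit1 (0.58), Slfn2 (-0.10), Parp9 (0.73), Igtp (0.04) and H2-T24 (-0.86; log2 fold changes in VHL-deficient cells). The count of 9 was 4 without the first spleen library, 2 without the first tumor library (1 higher, 1 lower), 2 without the second tumor library (0 higher, 2 lower) and 15 in a fit of the 4 libraries alone. The interaction of genotype with tissue called 0 of the 47 by limma and by voom (0.0209% of all tested genes were called higher and 0.0489% lower, 0.0698% either way), while 19 were higher and 0 lower at an unadjusted p under 0.05 (9.61% of all tested genes passed, either way). Its median was 1.10 (-0.03 over all genes), with 40 of 47 above 0, and the smallest p was that of Oasl2 (difference 2.80, SE 0.73, adjusted p = 0.209). Without the second VHL-deficient spleen library, 1 of the 47 was called.

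Day 11 and day 7 tumor, which also differ in plate column, gave calls for 0 of the 47 (0% of all tested genes called either way in WT and in VHL-deficient cells; voom also called 0). In WT the median was -0.08 (-0.01 over all genes) and 1 gene was higher and 0 lower at an unadjusted p under 0.05 (3.38% of all tested genes passed, either way), namely Oasl2, at 15.3 and 7.06 on day 7 and 29.2, 51.5 and 22.5 on day 11 (log2 fold change 1.54, SE 0.47, adjusted p = 0.981). In VHL-deficient cells the median was -0.43 (0.01 over all genes), 41 of 47 were below 0 and 12 were lower and 0 higher at an unadjusted p under 0.05 (4.42% of all tested genes passed, either way). Oasl2 was again first, at 20.3 and 26.0 against 4.64, 6.92 and 8.39 (log2 fold change -1.68, SE 0.47, adjusted p = 0.784), now lower on day 11. In 25 of the 47, all 3 VHL-deficient day 11 libraries lay below both day 7 libraries (16.8% of all tested genes). The genes given for each role had log2 fold changes in WT and VHL-deficient cells of -0.05 and 0.05 (Irf9), -0.52 and -1.17 (Ifit1), -0.65 and -1.44 (Oas3), -0.15 and -0.28 (Ddx58), and 0.19 and -0.14 (Samhd1). For the other roles they were 0.17 and -0.20 (Herc6), 0.44 and 0.41 (Ifi203), -0.01 and -0.43 (Slfn2), 0.05 and -0.21 (Parp9), 0.04 and -0.20 (Igtp), and 0.27 and 0.13 (H2-T24). The interaction of genotype with day called 0 (0% of all), with 2 lower and 0 higher at an unadjusted p under 0.05 (1.87% of all tested genes passed, either way) and a median of -0.29. Oasl2 had the smallest p of the 47 there (difference -3.22, SE 0.67, adjusted p = 1).

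Of the ligands, only Ifng, interferon gamma, reached a level that could be tested. Of 11 ligand genes, the 10 of type I and type III had at most 4 reads in any library, and Ifna1 and Ifna11 had 0 reads in all 22. Ifng was detected in all 22 and rose in unsplit tumor over spleen, from 76.5 and 90.1 to 1089.5 and 2081 in WT (log2 fold change 4.16, SE 0.49, adjusted p = 4.61e-06) and from 62.6 and 78.8 to 1648 and 1572 in VHL-deficient cells (log2 fold change 4.50, SE 0.49, adjusted p = 2e-06). It lay at 726 and 579 in WT nonTrm and 1479.7 and 2066 in WT Trm cells and was not called there (log2 fold change 1.43, SE 0.49, adjusted p = 0.219).

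The receptor chain Ifnar2 was called lower in VHL-deficient cells in 4 of 5 settings, and was lower without a call in nonTrm cells. It lay at 497 and 408 in WT and 69.3 and 100.1 in VHL-deficient spleen (log2 fold change -2.42, SE 0.30, adjusted p = 3.2e-05), and at 359, 262 and 336 against 181, 105 and 106 in day 11 tumor (log2 fold change -1.32, SE 0.25, adjusted p = 0.00224). In unsplit day 7 tumor it lay at 216 and 287 against 81.2 and 109.5 (log2 fold change -1.39, SE 0.30, adjusted p = 0.0162), and in Trm cells at 320.3 and 305 against 111 and 145 (log2 fold change -1.29, SE 0.30, adjusted p = 0.0103). No VHL-deficient library reached a WT library of its setting. In nonTrm cells it lay at 469.6 and 521 against 282 and 300.1 (log2 fold change -0.76, SE 0.30, adjusted p = 0.214). Among the 17 tested receptor and signaling genes, 0 rose and 2 fell in VHL-deficient day 11 tumor, 1 rose and 2 fell in spleen, 0 rose and 2 fell in Trm cells, 0 rose and 1 fell in unsplit tumor, and 0 were called in nonTrm cells. The shares of all tested genes called either way were 6.87% on day 11, 3.18% in spleen, 10.1% in Trm, 1.91% in unsplit tumor and 2.32% in nonTrm cells, which are also the background for the lists that follow. Between Trm and nonTrm cells 0 of the 17 were called in either genotype by limma.

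Other interferon-stimulated genes, 52 tested and none of them among the 47, form the next list. In VHL-deficient spleen 1 rose and 6 fell (median log2 fold change -0.30), led by Ifi214 at 488 and 329 in WT and 101 and 148 in VHL-deficient cells (log2 fold change -1.71, SE 0.29, adjusted p = 0.00107) and Ifi213 at 384 and 491 against 148 and 100.1 (log2 fold change -1.83, SE 0.35, adjusted p = 0.00394), both of the Ifi200 family. The gene that rose was Ifitm2 (248 and 160.3 against 997 and 587, log2 fold change 1.94, SE 0.40, adjusted p = 0.00626), a membrane protein that hinders viral entry. Between WT Trm and nonTrm cells 0 of the 52 were called and their median was -0.68. In unsplit tumor against spleen, 2 rose and 8 fell in WT, and 7 rose and 3 fell in VHL-deficient cells. Of all tested genes, 13.2% rose and 8.31% fell in WT and 9.98% rose and 5.47% fell in VHL-deficient cells there. In VHL-deficient day 11 tumor 0 rose and 2 fell, and in Trm cells 1 rose and 0 fell: Uba7, the enzyme that activates Isg15, at 258 and 337 in WT and 877 and 809 in VHL-deficient cells (log2 fold change 1.51, SE 0.45, adjusted p = 0.0373).

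Of 32 tested GTPase and class I genes that respond to interferon gamma, 0 rose and 2 fell in VHL-deficient spleen, among them Gbp3 (169.8 and 167 in WT and 55.9 and 48.4 in VHL-deficient cells, log2 fold change -1.67, SE 0.34, adjusted p = 0.00528). In day 11 tumor 0 rose and 1 fell, in Trm cells 0 rose and 1 fell, and between WT Trm and nonTrm cells 0 were called (median -0.45). The gene that fell on day 11 and in Trm cells was Psmb9, a subunit of the immunoproteasome (log2 fold change -1.05, SE 0.29, adjusted p = 0.0326 on day 11, and log2 fold change -1.40, SE 0.35, adjusted p = 0.0156 in Trm cells). Of 10 tested negative regulators, of which Usp18 is one of the 47, Cish rose in VHL-deficient spleen (522 and 293 in WT and 1139.8 and 1090.3, log2 fold change 1.51, SE 0.30, adjusted p = 0.00546) and Usp18 alone was called in VHL-deficient day 11 tumor. Of 13 tested sensing and adaptor genes, 0 rose and 2 fell on day 11, 0 rose and 1 fell in Trm cells, and 0 were called in spleen, unsplit tumor or nonTrm cells. Rnaseh2b, a subunit of the ribonuclease that clears RNA from DNA, fell in both (log2 fold change -1.33, SE 0.27, adjusted p = 0.00456 on day 11, and log2 fold change -1.49, SE 0.33, adjusted p = 0.00775 in Trm cells).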

How the data were processed

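RNA of sorted mouse CD8+ T cells was sequenced in 22 libraries. The authors deposited 1 table of signal values, which the values show to be gene read counts divided by 1 size factor per library, plus 1; per the submitters' processing notes, STAR, featureCounts, DESeq and build mm10 were used, with no version stated there. The 1 was removed, and every value was then a whole multiple of 1 step per library (tolerance 0.01 of a read), which gave the reads per library. The 47 genes and the other lists were chosen with earlier results of these data known. Levels were tested as log2(scaled count + 1) with limma 3.58.1 in R 4.3.3 (mean of each of 10 groups, variance trend, 12 residual degrees of freedom), on 14327 genes with at least 10 in at least 2 libraries, for 14 comparisons. Fold changes on this scale understate changes of low genes. Libraries are pools, and p-values rest on the spread between libraries within groups. That spread was estimated once per gene over all 10 groups, and not from the groups compared alone. Values per library were given for called genes, up to 12 per comparison by smallest adjusted p, and for the most highly expressed gene of each role. Replicate numbers were not used as pairs. The alternatives were other scaling, filters and pseudocounts, a replicate block, smaller fits, voom and leaving out each library; an edgeR test that had been planned was not run because the deposited values are normalized counts. The scripts were tested on simulated data. Some genes of the other lists are not reported here.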

Additional observations from a re-analysis of the deposited data

Results flagged for a closer look

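The effect of VHL deficiency differed between Trm cells and spleen for 2 of the 47 genes, by a test of the difference itself (0.112% of all tested genes were called higher and 0.23% lower). This contrast was chosen after seeing the data. Of the genotype comparisons, Trm cells had the highest median of the 47 (0.50) and spleen the lowest (-1.03), so a positive difference went with the choice. The contrast was fitted only once, without voom, smaller fits or leaving out a library, so how far its calls depend on these is not known. For Ifi208 the difference of the log2 fold changes (Trm minus spleen) was 2.09 (SE 0.43, limma adjusted p = 0.0386). It lay at 218 and 172 in WT and 325 and 416 in VHL-deficient Trm cells, and at 626 and 482 and 210.1 and 281 in spleen. For Ifi206 the difference was 2.04 (SE 0.44, limma adjusted p = 0.0491), with 274 and 297 in WT and 423 and 529 in VHL-deficient Trm cells and 427 and 488 and 190.0 and 176 in spleen. Both genes were higher in VHL-deficient than in WT libraries in Trm cells and lower in spleen. Their promoter stretches are nearly the same, and the sources used here do not say how reads that fit both were counted. Of the 47 differences, 46 were above 0, with a median of 1.47 against 0.0017 over all genes. Trm and spleen cells lay in different plate columns, which cannot be told apart from the setting.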

How the results depend on the processing

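Direction was checked only for called genes with values given above, each in the comparison that called it. None of these changed direction under any alternative run. Of their fits, 62 of 394 under other settings and 180 of 1056 without 1 library lost the call. Genes named above without a call were not part of this check, so it does not show that their directions are stable. Medians moved by less than the spread between replicates in 114 of 114 fits under other settings and 301 of 308 without 1 library. Leaving out a library of a group outside the comparison cannot change a fold change or a median. The same holds for a fit of only the groups compared. Many of these fits could therefore change neither a direction nor a median. Counts of called members that moved by over 1.5 times were as follows. Without the filter on low values, the count was 2 on day 11 between genotypes, 3 in spleen, 1 in Trm, 0 in nonTrm, and 9 for WT tumor against spleen. In fits of only the groups compared it was 17, 0, 0 and 0 for the first 4 of these, 7 and 15 for tumor against spleen in WT and VHL-deficient cells, 0 for WT Trm against nonTrm and 2 for VHL-deficient day 11 against day 7. With voom it was 3 in spleen, 7 in Trm and 20 for WT Trm against nonTrm. Such shifts were not traced further, and their cause was not tested. Fits of only the groups compared also hold fewer libraries.

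With 1 library left out, the counts ranged from 1 to 9 (day 11), 1 to 14 (spleen), 0 to 12 (Trm), 0 to 16 (nonTrm), 7 to 23 and 2 to 13 (tumor against spleen, WT and VHL-deficient), 0 to 22 and 0 to 5 (Trm against nonTrm, WT and VHL-deficient), 0 to 1 (genotype by tissue) and 0 to 19 (genotype by subset). The balance of calls turned in 2 of these fits: 1 higher and 3 lower, 4 in all, in Trm between genotypes without the second WT Trm library, and 0 higher and 2 lower in VHL-deficient tumor against spleen without the second tumor library. Medians ranged from -0.87 to 0.060 (nonTrm between genotypes), -1.15 to -0.39 (WT tumor against spleen), -1.84 to -1.15 and -0.81 to 0.014 (Trm against nonTrm, WT and VHL-deficient) and 0.53 to 1.47 (genotype by subset). A group left with 1 library is assumed to vary like the others.

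The labels do not say that a replicate number marks a shared source. Correlations of the deviations of same-numbered libraries between genotypes were 0.0427, 0.105 and 0.104 on day 11, 0.0291 in unsplit tumor, 0.118 in spleen, 0.236 in Trm and 0.271 in nonTrm cells; between Trm and nonTrm they were -0.148 in WT and -0.181 in VHL-deficient cells. With 2 pairs, or with 1 of 3 under the limit of 0.1, these do not show pairing. The replicate block gave 0 calls in nonTrm between genotypes in place of 1, and 6 on day 11, 7 in spleen, 4 in Trm, 12 and 9 for tumor against spleen in WT and VHL-deficient cells, and 7 for WT Trm against nonTrm. With crossed numbers as a block, chosen after seeing the data, Trm against nonTrm gave 10 calls in WT and 0 in VHL-deficient cells. The planned edgeR test was not run, since the values are normalized counts; voom, chosen after seeing the data, took its place. Depth limits genes of few reads such as Oasl2, Oasl1 and Ifi44, where 1 read is worth 0.684 to 2.73 scaled counts.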
